A study of Glycine max with 8 samples.

Results

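This report compares the genome-wide binding peaks of the SNAP1 and SNAP2 TFs with those of SNAP3 and SNAP4, over the 4 ChIP-seq libraries of each pair and so over all 8 libraries of the series. The libraries were assigned to a pair by the factor in their label alone. The pairs, measures, lists and rules were, however, chosen with earlier results of these data known. The p-values below are therefore not from a comparison fixed before the data were seen. The SNAP1/2 pair held 2 replicates of FLAG-SNAP1 and 2 of FLAG-SNAP2, and the SNAP3/4 pair held 2 replicates of FLAG-SNAP3 and 2 of FLAG-SNAP4.

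SNAPs are soybean NAC TFs, plant-specific regulators that bind DNA through a conserved N-terminal domain and many of which act in senescence and stress responses. The study connects the SNAPs with the response of mature nodules to high nitrogen, in which nitrogen fixation falls and the nodule ages early. It edited SNAP1 and SNAP2 with a common set of guides and SNAP3 and SNAP4 with another, which is the division of the factors used here. In ChIP-seq, DNA that a tagged protein holds in fixed chromatin is pulled down with an antibody and sequenced, and a peak is a stretch of the genome in which reads pile up above the local background.

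In every group the coding sequence of 1 SNAP factor, fused with a FLAG tag, was expressed from the soybean pM4 promoter in hairy roots, which are roots induced on the plant by Agrobacterium. All 8 libraries came from root tissue with nodules, with the same fixation, FLAG antibody and on-bead cutting by the Tn5 transposase. The archive labels call each genotype a mutant of the SNAP gene and the tissue root nodule, whereas the study's methods describe tagged factors in transgenic roots with nodules, and the latter description is used here. The sources used here give neither the nitrogen level of these roots, nor the amount of each tagged protein, nor a control library. Roots, nodules and cell types of the nodule are therefore mixed in each sample, and a difference between the pairs in protein amount, read number or immunoprecipitation cannot be told apart from a difference in binding.

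The deposited lists of the SNAP1/2 pair were longer. They held 8426 and 9052 peaks for SNAP1 and 7937 and 9332 for SNAP2, against 6590 and 3628 for SNAP3 and 5888 and 6856 for SNAP4. The study states a minimum read number for all samples but not the number for each library, so a shorter list cannot be told apart from a shallower library. The mean was 8687 ± 627 peaks for the SNAP1/2 pair and 5741 ± 1466 for the SNAP3/4 pair (SD, n = 4 libraries), a ratio of 1.51, and the ranges did not overlap. The exact permutation test over the libraries gave a two-sided p of 0.0286, which is the smallest that 4 libraries against 4 can give. Libraries of 1 factor are not independent samples of its pair, and with the factor as the unit 2 against 2 cannot go below 0.333. Because the lists differed in length, every measure was also taken on the 3628 peaks of each library with the highest −log10 q-value, called the top peaks below, a number set by the shortest list.

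Peaks of SNAP1 and SNAP2 were wider than those of SNAP3 and SNAP4. The median width was 356 and 371 bp in the SNAP1 libraries and 318 and 335 bp in the SNAP2 libraries. It was 270 and 290 bp in the SNAP3 libraries and 293 bp in each of the SNAP4 libraries. No library of a pair reached the values of the other pair, and the factor means within a pair differed by less than the pair means did. The factor means were 363.5 bp for SNAP1, 326.5 for SNAP2, 280 for SNAP3 and 293 for SNAP4. SNAP2 thus lay slightly nearer to SNAP4 than to SNAP1. The pair means were 345 ± 23.3 and 286.5 ± 11.1 bp (SD, n = 4), a difference of 58.5 bp with an exact p of 0.0286. Benjamini-Hochberg adjustment over 6 single-value measures could not change this value, since all 6 had the same smallest p.

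The difference in width grew when the lists were made equally long. Among the top peaks the median width was 429, 455, 385 and 419 bp in the SNAP1/2 libraries and 312, 290, 332 and 340.5 bp in the SNAP3/4 libraries, a difference of 103.4 bp (exact p = 0.0286). Peaks of 500 bp or more made up 34.5 ± 5.65% of the top peaks of SNAP1/2 and 18.5 ± 5.81% of those of SNAP3/4 (exact p = 0.0286). Broad peaks of 1000 bp or more did not separate the pairs, at 6.39 ± 1.00% and 4.29 ± 1.94% (exact p = 0.114), and both SNAP4 libraries, at 6.20 and 5.49%, lay close to the SNAP1/2 libraries.

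The narrowest peak of a list moved with the median width. MACS2 does not report peaks below a minimum width that it sets for each library, and the narrowest peak was 235, 245, 209 and 222 bp in the SNAP1/2 lists and 182, 208, 190 and 192 bp in the SNAP3/4 lists. After the narrowest peak was subtracted from each width, a choice made after seeing the data, the pair medians still differed by 23.8 bp (exact p = 0.0286). When each width was instead divided by the narrowest peak, the ratio differed between the pairs by only 0.0285 (exact p = 0.6). The part of DNA fragment length in the width of the peaks was not tested.

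Peaks of SNAP3 and SNAP4 lay more often inside genes. The midpoint was inside a RefSeq gene for 38.0 and 38.7% of the SNAP1 peaks, 38.9 and 36.1% of the SNAP2 peaks, 52.4 and 50.5% of the SNAP3 peaks and 45.2 and 41.9% of the SNAP4 peaks. SNAP3 stood furthest from the SNAP1/2 pair and SNAP4 lay between, with no overlap between the pairs. The means of 37.9 ± 1.26% and 47.5 ± 4.81% gave a difference of -9.55 percentage points (SNAP1/2 minus SNAP3/4, SD, n = 4, exact p = 0.0286, adjusted p = 0.0286 by permutation and Benjamini-Hochberg adjustment). Without the SNAP3 libraries the difference was -5.60 percentage points, and without the SNAP4 libraries -13.5.

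Peaks of SNAP1 and SNAP2 lay more often beside genes, that is outside every gene but within 2 kb of a gene end. Such peaks made up 38.0, 36.6, 36.8 and 38.6% of the SNAP1/2 libraries and 28.3, 31.0, 34.5 and 34.3% of the SNAP3/4 libraries, a difference of 5.48 percentage points (exact p = 0.0286), or 3.08 without the SNAP3 libraries. Most of it fell between 500 bp and 2 kb from the gene end, with 14.1 ± 0.855% of the SNAP1/2 peaks and 10.3 ± 1.77% of the SNAP3/4 peaks (exact p = 0.0286). Within 500 bp outside a gene, where promoters and the flanks of 3′ ends lie, the shares were 23.4 ± 0.889% and 21.7 ± 1.60% and overlapped (exact p = 0.114). The annotation at hand gives no strand, so the 5′ and 3′ sides of a gene cannot be told apart.

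Peaks farther from genes, and deep inside them, were compared as well. Over 2 kb from any gene lay 24.0 to 25.2% of the peaks of each SNAP1/2 library and 19.4, 18.5, 20.3 and 23.8% of the peaks of the SNAP3/4 libraries, a difference of 4.07 percentage points (exact p = 0.0286), or 2.52 without the SNAP3 libraries. The second SNAP4 library, at 23.8%, was next to the lowest SNAP1/2 library, at 24.0%. Over 5 kb from any gene the pairs overlapped, at 13.3 to 14.1% and 11.6 to 14.0% (exact p = 0.0857, and 0.0571 among the top peaks). Deep inside genes, more than 500 bp from either end, lay 10.5 ± 1.12% of the SNAP1/2 peaks and 13.6 ± 1.92% of the SNAP3/4 peaks (exact p = 0.0286). Peaks inside protein-coding genes followed the same order, with 32.2 ± 1.18% for SNAP1/2 and 39.8 ± 3.73% for SNAP3/4 (exact p = 0.0286).

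These calls sit at the limit of the test. Leaving out any library of SNAP1/2 gave an exact p of 0.0571 or 0.0857 for the 3 positions, and leaving out any library of SNAP3/4 gave 0.0571 for the width, while the other leave-outs kept 0.0286. The direction was the same in each.

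The positions differed in the same direction among the top peaks. Inside genes were 40.0 ± 1.65% of the SNAP1/2 and 48.5 ± 3.71% of the SNAP3/4 peaks (exact p = 0.0286), and beside genes 37.0 ± 1.17% and 32.3 ± 2.12% (exact p = 0.0286). Far from genes the shares of 23.0 ± 1.12% and 19.2 ± 1.66% overlapped by 1 library on each side, SNAP2 replicate 1 at 21.3% and SNAP4 replicate 2 at 21.5%, and the test no longer passed (exact p = 0.0571).

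**Figure D1:**
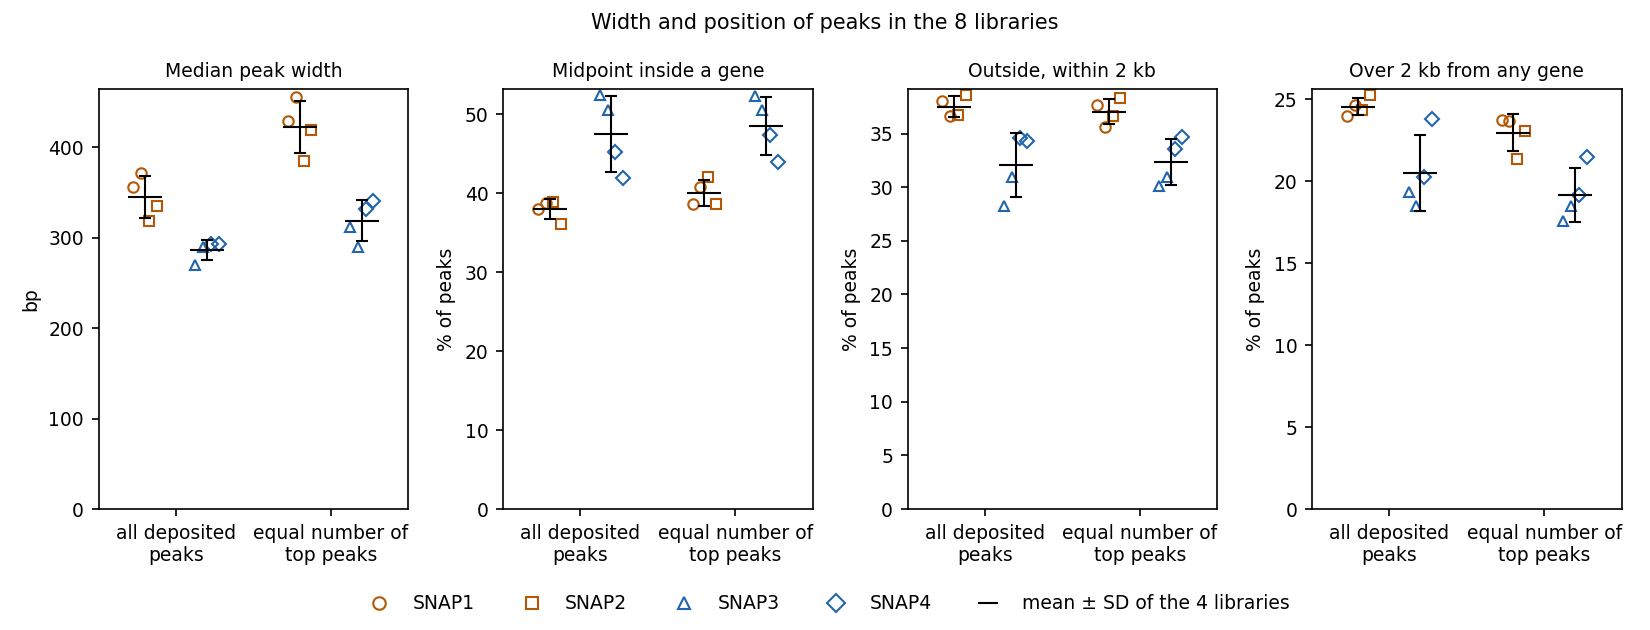
Median peak width in bp and the percentage of peaks inside genes, outside genes within 2 kb, and over 2 kb from any gene, for all deposited peaks and for the 3628 top peaks of each library. Each symbol is 1 library and bars give the mean ± SD of the 4 libraries of a pair; SNAP3 and SNAP4 are narrower and more often inside genes in both peak sets.

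Peaks at tRNA genes moved with the length of the lists. A tRNA gene is transcribed by RNA polymerase III from a promoter within the gene, and 709 tRNA genes are annotated on the 20 chromosomes. Among all deposited peaks, 7.62 ± 0.525% of the SNAP1/2 peaks and 10.8 ± 3.03% of the SNAP3/4 peaks had a summit within 200 bp of a tRNA gene (exact p = 0.0286). Among the top peaks the order turned, with 17.8 ± 0.0911% for SNAP1/2 and 15.3 ± 1.18% for SNAP3/4 (exact p = 0.0286). The numbers were 656 to 663 peaks in each SNAP1/2 library and 553 to 627 in each SNAP3/4 library. Many tRNA genes are near-identical copies. The study kept uniquely mapped read pairs, and how well these separate the copies was not tested. Without peaks at tRNA genes, a choice made after seeing the data, the difference inside genes was -9.96 and that beside genes 6.33 percentage points (exact p = 0.0286 for each), and that far from genes was 3.62 (exact p = 0.0571).

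To compare the pairs at single positions, overlapping peaks of the 8 libraries were merged into 21502 union sites. Of these, 1274 sites (5.93%) had a peak in all 8 libraries and are called shared sites. A site with a peak in 3 or 4 libraries of a pair and none in the other pair was called a site of that pair only. There were 863 sites of SNAP1/2 only (4.01% of union sites) and 145 sites of SNAP3/4 only (0.674%), of which 249 and 30 had a peak in all 4 libraries of the pair. No test was made of these counts, since presence defines the classes. Without 1 library, and with a peak then asked of 2 of the 3 remaining libraries of its pair, the SNAP1/2-only count was 1635 to 1987 without a SNAP1 or SNAP2 library and 1312 without SNAP4 replicate 2. The SNAP3/4-only count was 300 to 491 without a SNAP3 or SNAP4 library.

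The counts of the pairs were close once the lists were equally long. With the top peaks there were 10453 union sites, 870 of them shared (8.32%), and 198 sites of SNAP1/2 only (1.89%) against 179 of SNAP3/4 only (1.71%). Without SNAP3 replicate 2, the shortest list, lists of equal length gave 400.0 SNAP1/2-only and 587 SNAP3/4-only sites, the opposite order to the full lists, a choice made after seeing the data. A site without a peak in the top set is not free of binding: of the 198 SNAP1/2-only sites, 70 (35.4%) had no deposited peak in any SNAP3/4 library, and of the 179 SNAP3/4-only sites 56 (31.3%) had none in any SNAP1/2 library. For 16 of the 179 SNAP3/4-only sites all 4 SNAP1/2 libraries held a deposited peak of lower rank, which was the case for 0 of the 198 SNAP1/2-only sites. The classes of the full and the top lists shared 68 sites for SNAP1/2, which is 7.88% of the 863 and 34.3% of the 198, and 55 sites for SNAP3/4, which is 37.9% of the 145 and 30.7% of the 179.

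**Figure D2:**
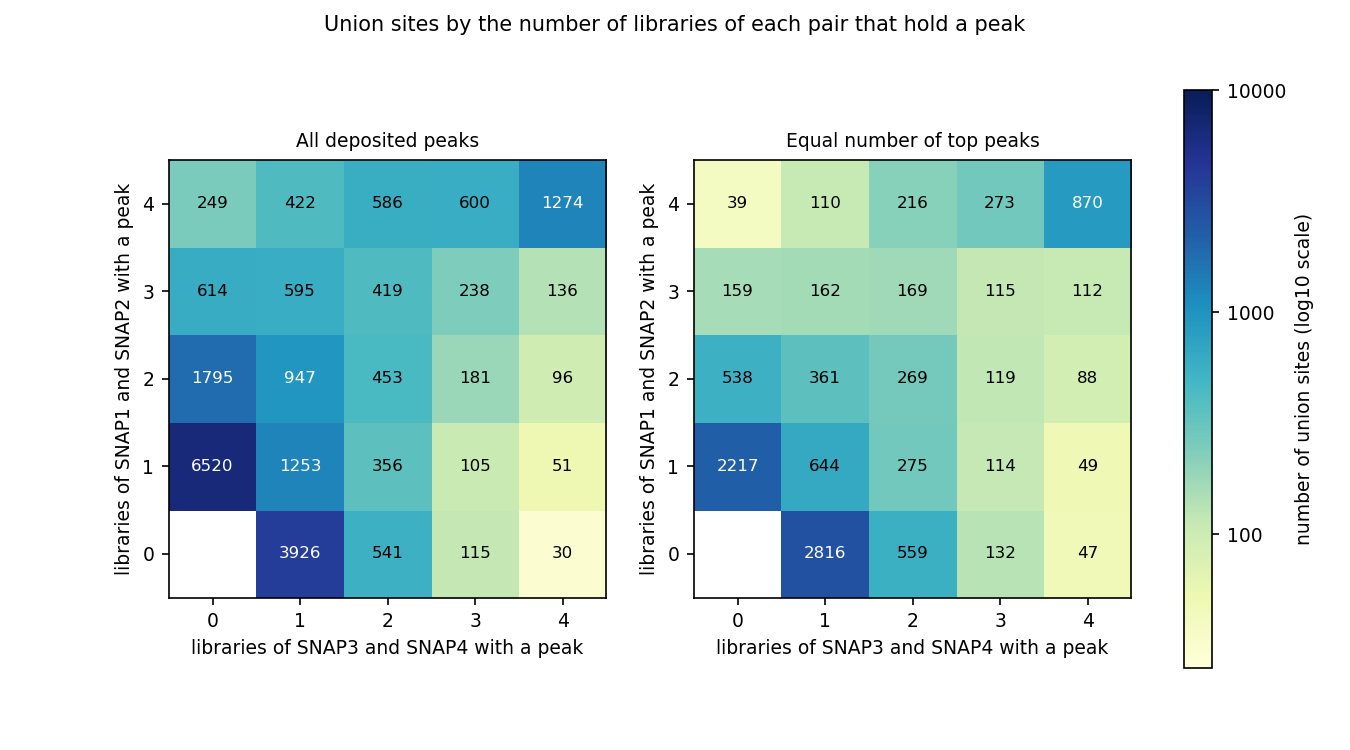
Number of union sites by how many of the 4 SNAP1/2 libraries (vertical axis) and of the 4 SNAP3/4 libraries (horizontal axis) held a peak, for all deposited peaks and for equal numbers of top peaks, with a log10 colour scale. The largest classes had a peak in 1 library, and the left column and bottom row are nearer in size once the lists are equally long.

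On average, SNAP3 and SNAP4 libraries overlapped with each other about as much as with the SNAP1/2 libraries. The Jaccard index, the number of sites held by both of 2 libraries over the number held by either, averaged 0.404 for replicates of a factor. It averaged 0.360 between SNAP1 and SNAP2 libraries (range 0.356 to 0.364), 0.286 between SNAP3 and SNAP4 libraries (0.273 to 0.303) and 0.289 between the pairs (0.210 to 0.349). With top peaks the same averages were 0.444, 0.389, 0.314 and 0.334. There the index of SNAP4 libraries was 0.328 to 0.383 with SNAP1/2 libraries and 0.296 to 0.334 with SNAP3 libraries. For SNAP3 libraries with SNAP1/2 libraries it was 0.285 to 0.325. These averages and ranges are a description without a test, since 4 factors can be split into pairs in too few ways, and the lengths of the lists enter the index.

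Sites of 1 pair only differed in position as the whole lists did, and more so. Of the 863 SNAP1/2-only sites, 27.5% were inside a gene, 39.4% beside a gene and 33.1% far from genes. Of the 145 SNAP3/4-only sites, 56.6% were inside, 23.4% beside and 20.0% far. The corresponding values were 49.5, 35.5 and 15.1% for the shared sites and 40.0, 34.8 and 25.2% for all union sites. In the top set 25.3% of the SNAP1/2-only and 58.7% of the SNAP3/4-only sites were inside genes, and 31.8 and 14.0% were far from genes. Presence chose the sites and position did not, but the sites come from the same peaks as the shares by library above and are not a separate test.

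**Figure D3:**
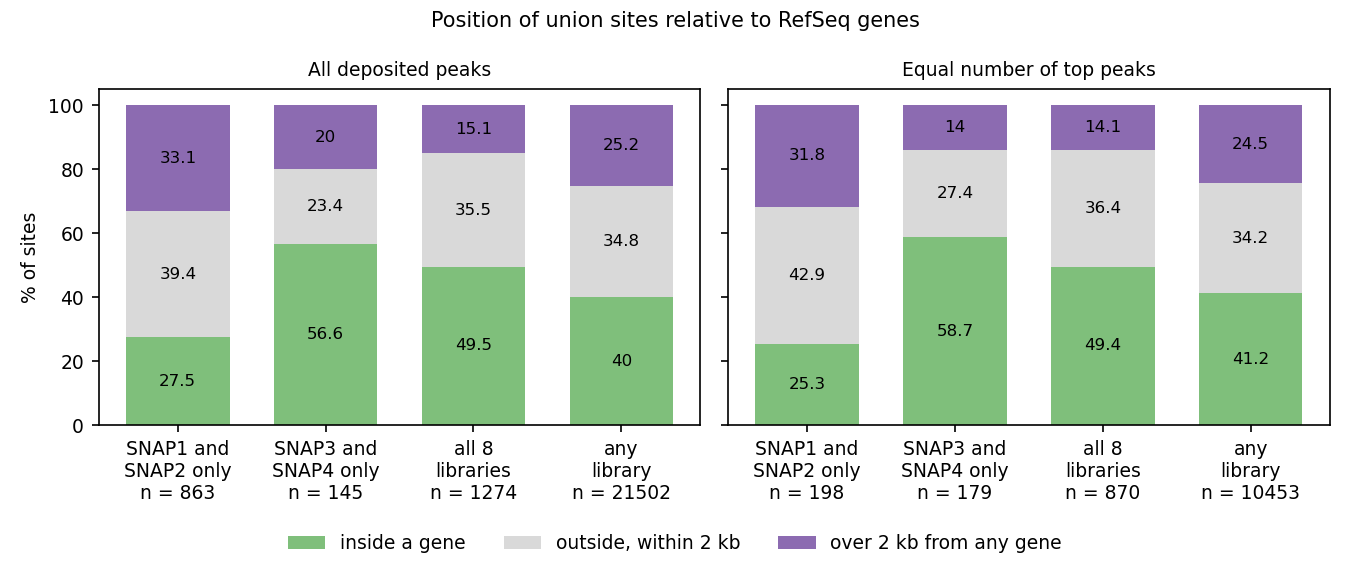
Percentage of union sites inside genes, outside genes within 2 kb and over 2 kb from any gene, for sites of SNAP1/2 only, of SNAP3/4 only, of all 8 libraries and of any library, with all deposited peaks and with top peaks. Inside genes lie 56.6 and 58.7% of the SNAP3/4-only sites and 27.5 and 25.3% of the SNAP1/2-only sites in the 2 sets.

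In enrichment and in the share at tRNA genes, sites of 1 pair only lay nearer to all union sites than to the shared sites. The median over sites of the mean fold enrichment was 4.35 for SNAP1/2-only, 4.76 for SNAP3/4-only and 6.17 for shared sites, and the strongest sites reached 7.11, 9.42 and 21.9. Over all union sites the median was 4.26. A tRNA gene lay at 12 of the 863 SNAP1/2-only sites (1.39%), at 0 of the 145 SNAP3/4-only sites and at 494 of the 1274 shared sites (38.8%), against 669 of all 21502 union sites (3.11%). A protein-coding gene was linked to 530 of the 863 SNAP1/2-only, 110 of the 145 SNAP3/4-only and 559 of the 1274 shared sites, and to 14354 of all 21502 union sites. A link means that the gene held the midpoint of the site or had an end within 2 kb.

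Of the leading SNAP1/2-only sites, 6 of 10 in the full lists and 5 of 10 in the top set were far from genes. Over all SNAP1/2-only sites the shares were 33.1 and 31.8%. With 10 sites in each list these counts are a description only. Of the 10 sites present in all 4 libraries with the highest mean percentile of fold enrichment, 6 were over 2 kb from any gene, 2 were linked to protein-coding genes, 1 to a pseudogene and 1 to the histidine tRNA gene TRNAH-GUG. The first of them lay 500 bp outside LOC100811066, on chromosome 18 from 48020377 to 48020789, with fold enrichments of 6.44 and 6.29 for SNAP1 and 5.80 and 5.68 for SNAP2. The strongest site without a gene nearby lay on chromosome 10 from 9416361 to 9416953, 12689 bp from the nearest gene, with 5.85, 7.17, 6.12 and 4.81 in the same order. The TRNAH-GUG site, on chromosome 7 from 42446816 to 42447277, had 6.71, 6.73, 4.66 and 5.21. The enrichments at the 3 sites thus ran from 4.66 to 7.17, and no SNAP3 or SNAP4 library held a peak at any of them.

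Of the 10 leading SNAP3/4-only sites, 9 were linked to protein-coding genes and 5 midpoints were inside a gene. These counts lay near those of all 145 SNAP3/4-only sites, of which 110 were linked to protein-coding genes and 56.6% were inside a gene. The 1 leading site far from genes was the strongest, on chromosome 1 from 699249 to 699561 and 10843 bp from any gene. Its fold enrichments were 9.77 and 8.01 for SNAP3 and 5.80 and 6.33 for SNAP4. The site 664 bp outside LOC100801444, on chromosome 1 from 56166994 to 56167339, had 7.94, 7.17, 6.44 and 5.36. The site inside LOC100775697, on chromosome 7 from 17366197 to 17366567, had 8.12 and 7.83 for SNAP3 and 4.35 and 4.73 for SNAP4. The site inside LOC100814575, on chromosome 15 from 7515138 to 7515571, had 7.35, 7.05, 4.08 and 5.66. By the percentile of fold enrichment within the library, both SNAP3 libraries stood above both SNAP4 libraries at LOC100775697 (92.3 and 88.7 against 63.6 and 69.2), and at the other 3 sites the factors overlapped. The annotation at hand gives these loci no descriptive name.

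Among NAC genes, the family of the SNAPs themselves, 52 genes could be matched by symbol. Of these, 1 had a SNAP1/2-only site (1.92%, against 0.979% of all 58643 genes), 1 a SNAP3/4-only site (1.92% against 0.196%) and 5 a shared site (9.62% against 1.82%). NAC51 had the SNAP1/2-only site, 111 bp outside the gene on chromosome 7 from 41233773 to 41234292, with fold enrichments of 4.82, 4.47, 4.31 and 4.34 in the SNAP1 and SNAP2 libraries. NAC175 had the SNAP3/4-only site, 323 bp outside the gene on chromosome 13 from 38724037 to 38724465, with 5.50 in SNAP3 replicate 1, no peak in SNAP3 replicate 2, and 3.83 and 6.17 in the SNAP4 libraries. In the top set neither gene had a site of 1 pair only, and the background of all genes was 0.23% for SNAP1/2-only and 0.256% for SNAP3/4-only sites. SNAP4, which the study identifies with GmNAC181, is NAC11 in RefSeq, where GmNAC181 is a synonym, and 0 union sites were linked to it.

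The shared sites at 4 of the 5 NAC genes were 1997 to 2930 bp long. At NAC2 the fold enrichment was 4.26 ± 0.186 in the SNAP1/2 and 4.38 ± 0.107 in the SNAP3/4 libraries (SD, n = 4), at a site 2210 bp long. At NAC018 it was 4.35 ± 0.288 and 4.45 ± 0.371, at NAC19 5.08 ± 0.840 and 4.56 ± 0.482, and at LOC100170751, with the synonym NAC32, 4.59 ± 0.660 and 4.90 ± 0.528. The site at SNAC38 was 460 bp long, with 3.46 to 6.84 in the SNAP1/2 and 3.98 to 7.54 in the SNAP3/4 libraries. Fold enrichment is set by each library alone, so these values were put side by side and not tested.

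WRKY genes encode TFs of defence and senescence, and 64 could be matched. A shared site was linked to 11 of them (17.2%, against 1.82% of all genes), a SNAP1/2-only site to 2 (3.12% against 0.979%) and a SNAP3/4-only site to 0 (against 0.196%). At WRKY5, 148 bp outside the gene on chromosome 1 from 45125516 to 45126146, the enrichments were 3.65, 4.40, 4.33 and 6.20 in the SNAP1 and SNAP2 libraries. At WRKY25, 671 bp outside the gene on chromosome 8 from 901319 to 901719, they were 4.34, 4.95, 3.82 and 2.94. Percentiles of fold enrichment within the library were 15.4 to 91.3 at the WRKY5 site and 3.40 to 65.5 at the WRKY25 site. With the top peaks the count turned to 0 SNAP1/2-only (against 0.23% of all genes) and 3 SNAP3/4-only WRKY genes (4.69% against 0.256%), namely WRKY39, WRKY47 and WRKY49. Their sites lay near the bottom of the top lists, each with a top peak in 3 SNAP3/4 libraries. The percentiles of fold enrichment there were 0.61 to 3.39, 3.46 to 10.6 and 1.27 to 4.60 in the same order. Each of the 3 genes had a lower-ranked deposited peak in 1 or 2 SNAP1/2 libraries at that site, and each was also linked to a shared site of the full lists.

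The other TF families were counted in the same way, again beside 0.979% of all genes with a SNAP1/2-only, 0.196% with a SNAP3/4-only and 1.82% with a shared site. Of 16 ERF and DREB genes, which answer ethylene, cold and drought, 2 had a SNAP1/2-only site (DREB1-like and ERF6, 12.5%), 1 a SNAP3/4-only site (ERF7, 6.25%) and 2 a shared site (12.5%). At ERF7 the site lay inside the gene on chromosome 7 from 3682701 to 3683093, with 3.68, 5.22, 4.28 and 3.25 in the SNAP3 and SNAP4 libraries. Percentiles of fold enrichment within the library were 8.80 to 61.3 at this site. They were 9.18 to 28.4 at the SNAP1/2-only site of ERF6 and 72.3 to 89.85 at that of DREB1-like. The 3 counts of 2, 1 and 2 were the same in the top set. The ERF7 site there was another, from 3683149 to 3683820, where 1 SNAP1/2 library held a deposited peak of lower rank. ERF6 was also linked to a shared site of the full lists, inside the gene. Of 83 MYB genes 3 had a SNAP1/2-only site (MYB51, MYB98 and 1-3-1A, 3.61%) and 0 a SNAP3/4-only or a shared site. Of 89 bZIP genes 3 had a SNAP1/2-only site (BZIP62, BZIP105 and BZIP112, 3.37%), 0 a SNAP3/4-only and 6 a shared site (6.74%). In the top set 0 MYB genes had a site of the 3 classes (all genes 0.23, 0.256 and 1.26%). BZIP112 alone of the bZIP genes had a SNAP1/2-only site there (1.12%), with 0 SNAP3/4-only and 3 shared (3.37%). In the full lists the SNAP1/2-only sites of MYB and bZIP genes, except that at BZIP112, had a peak in 3 libraries. Percentiles of fold enrichment were 0.28 to 7.41 at BZIP105, BZIP62 and 1-3-1A, and 17.9 to 88.0 at the others. With 0 to 6 genes in each class, the shares are a description only.

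Gene groups of nodule function had shares near those of all genes. Of their 70 genes 1 had a shared site (1.43% against 1.82% of all genes), and 0 had a site of 1 pair only (against 0.979 and 0.196%), while 20 had a union site of any kind (28.6% against 22.1%). Of 23 nodulin genes 1 had a shared site (NOD33), and none of the 4 leghemoglobin, 2 vacuolar-processing enzyme, 2 DnaJ, 6 autophagy-related, 22 trehalose-phosphate, 3 nitrate transporter, 6 glutamine synthetase or 3 asparagine synthetase genes matched by symbol had a site of the 3 classes. A union site of any kind was linked to 2 of 2 DnaJ, 3 of 3 asparagine synthetase, 2 of 3 nitrate transporter and 1 of 2 vacuolar-processing enzyme genes. In the other groups it was linked to 5 of 23 nodulin, 5 of 22 trehalose-phosphate, 1 of 6 autophagy-related, 1 of 6 glutamine synthetase and 0 of 4 leghemoglobin genes. Most soybean genes carry no descriptive symbol in the annotation at hand, and these counts cover only those that do. No protein phosphatase 2C gene could be matched.

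Other genes with a symbol were read after their values had been seen. Outside the TF families above, SNAP1/2-only sites were linked to 24 such genes, with mean fold enrichments between 2.83 and 4.79, and SNAP3/4-only sites to 5, between 4.31 and 6.31. These counts come from the full lists, with 863 and 145 sites of 1 pair only. No share over all genes with a symbol was taken, so they are a description only. The SNAP1/2-only genes included APX2 (an ascorbate peroxidase), 4CL1 (4-coumarate-CoA ligase, an early enzyme of phenylpropanoid synthesis), IPT (isopentenyltransferase, of cytokinin synthesis), PRR3B (a clock pseudo-response regulator) and the heat shock factors HSF-25 and HSF-38. Of those named, PRR3B had a peak in all 4 SNAP1/2 libraries and each of the others in 3. The IPT site lay 1938 bp outside the gene, at percentiles of fold enrichment of 39.1, 7.23 and 2.77. The SNAP3/4-only genes included PAD4, known in Arabidopsis as a regulator of salicylic acid defence, and GSTU27, a glutathione S-transferase. At PAD4, on chromosome 8 from 142107 to 142509, the enrichments were 5.77 in SNAP3 replicate 1 and 3.91 and 3.98 in the SNAP4 libraries, with no peak in SNAP3 replicate 2. The calmodulin gene SCAM-3 was in both lists: the SNAP1/2-only site lay 81 bp outside the gene on chromosome 19 from 23400342 to 23400813, and the SNAP3/4-only site inside it from 23402575 to 23403073.

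Shared sites stood higher in the SNAP1/2 lists. The median percentile of their fold enrichment among all peaks of the library was 89.2, 89.8, 88.9 and 90.7 in the SNAP1/2 libraries and 86.3, 76.1, 78.1 and 84.6 in the SNAP3/4 libraries, with pair means of 89.6 ± 0.789 and 81.3 ± 4.93 (SD, n = 4, exact p = 0.0286, but 0.0571 or 0.0857 without any library of SNAP1/2). A longer list holds more weak peaks below the shared sites, and shared sites held 14.7 ± 1.08% of the SNAP1/2 and 23.7 ± 7.74% of the SNAP3/4 peaks. With the top peaks, in equal numbers, the difference fell from 8.38 to 3.40 percentiles, with means of 84.6 and 81.2 (exact p = 0.0286). The median fold enrichment of all peaks did not separate the pairs, at 4.36 ± 0.193 and 4.55 ± 0.527 (exact p = 0.543).

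At the shared sites themselves the SNAP1/2 peaks were also wider. The median width there was 511, 533, 464 and 501 bp for SNAP1/2 and 391, 356, 395 and 425 bp for SNAP3/4 (exact p = 0.0286). The mean width was greater in SNAP1/2 at 1089 of the 1274 sites (85.5%), with a median ratio of 1.27. All 4 SNAP1/2 peaks were wider than all 4 SNAP3/4 peaks at 285 sites (22.4%), and the opposite held at 5 (0.392%). By position, the pairs did not overlap in median width at tRNA genes, where the means were 484.6 ± 19.8 and 357.9 ± 23.2 bp, beside other genes or far from genes (exact p = 0.0286, adjusted p = 0.0381 for each). Inside other genes they overlapped, at 655.5 ± 115.7 and 561.5 ± 84.3 bp (exact p = 0.286), with both SNAP4 libraries above both SNAP2 libraries.

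The order of the shared sites by fold enrichment differed between the pairs according to position. Ranked within each library among the 1274 shared sites, the 494 sites at tRNA genes had a median percentile of 70.5, 70.7, 70.2 and 72.1 in the SNAP1/2 libraries and 68.8, 69.6, 61.7 and 66.6 in the SNAP3/4 libraries. The 377 sites inside other genes had 21.9, 22.4, 23.2 and 22.5 against 27.6, 26.9, 36.0 and 27.5. The pairs did not overlap at either kind of site, and the differences were 4.18 and -7.00 percentiles (exact p = 0.0286 and adjusted p = 0.0571 over 4 positions, for each). Neither passed after adjustment. Sites beside other genes differed by -0.844 percentiles (exact p = 0.286) and sites far from genes by -6.70 (exact p = 0.0857). This division by position was made after the data had been seen. Among the top peaks the tRNA difference was 3.66 (exact p = 0.143) and that inside other genes -7.33 (exact p = 0.0286, adjusted p = 0.114).

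**Figure D4:**
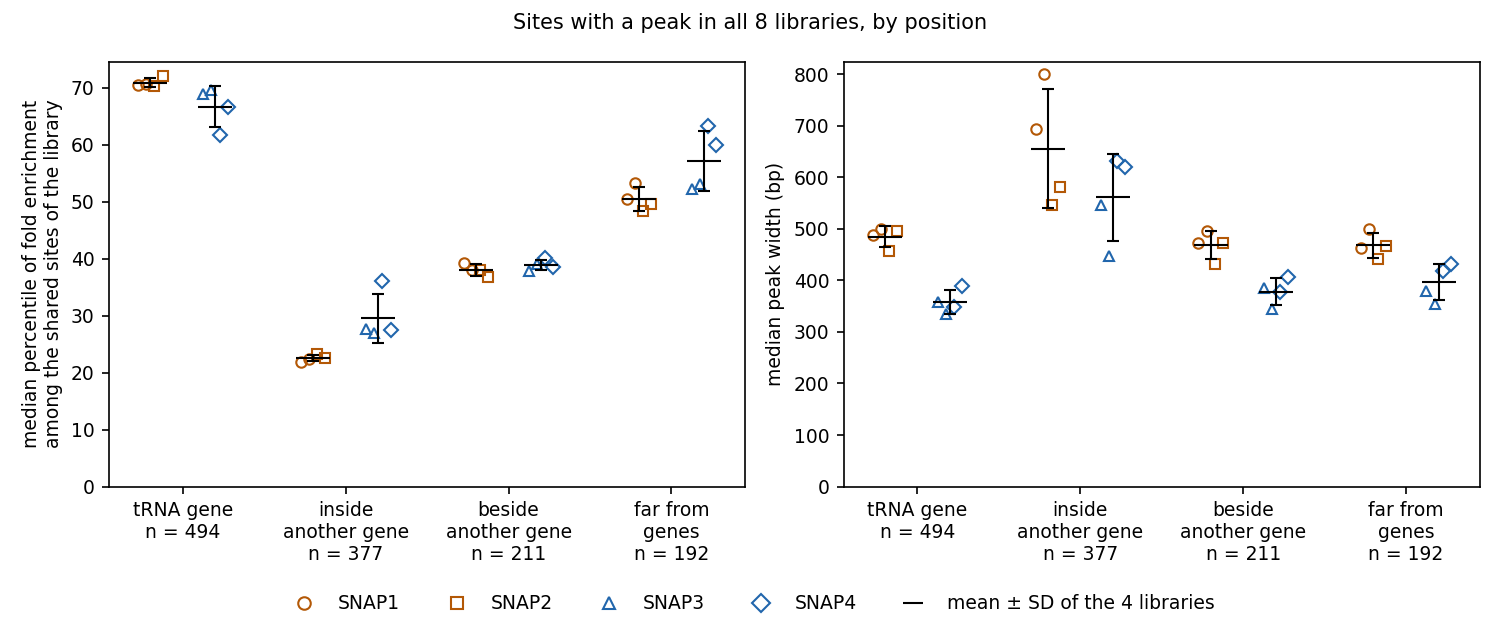
Median percentile of fold enrichment among the shared sites and median peak width in bp, for the 1274 shared sites split by position; each symbol is 1 library and bars give the mean ± SD of 4 libraries. The SNAP1/2 medians lie above those of SNAP3/4 at tRNA genes and below them inside other genes, without passing after adjustment, and the SNAP1/2 peaks are wider at tRNA genes, beside genes and far from genes.

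In the test of each shared site, limma was run on normal scores of the within-library rank and compared the mean of SNAP1 and SNAP2 with the mean of SNAP3 and SNAP4. It called 33 of 1274 sites (2.59%) at an adjusted p of 0.05, of which 10 ranked higher in SNAP1/2 (0.785%) and 23 in SNAP3/4 (1.81%), and 262 sites (20.6%) had an unadjusted p of 0.05 or less. The error there is the spread between replicates of a factor, and a fit with 1 mean for each pair, in which the spread between factors counts as error, called 1 site. With ranks among all peaks of the library in place of ranks among the shared sites, 23 sites were called and the split was 20 higher in SNAP1/2 and 3 in SNAP3/4, so the direction of the calls holds only relative to the other shared sites. Of the 10 called sites ranked higher in SNAP1/2, 6 were at tRNA genes. Of the 23 ranked higher in SNAP3/4, 0 were at tRNA genes and 19 were linked to protein-coding genes, against 494 and 559 of all 1274 shared sites. The calls depended on single libraries. Leaving out SNAP1 replicate 1 or 2, SNAP2 replicate 2, or SNAP3 replicate 1 or 2 left 0 calls by limma, with at least 165 sites at an unadjusted p of 0.05 in each, leaving out SNAP2 replicate 1 left 2, and leaving out SNAP4 replicate 2 gave 116.

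Without any model, all 4 SNAP1/2 libraries ranked a site above all 4 SNAP3/4 libraries at 48 sites (3.77% of the shared sites), and the opposite held at 63 (4.95%). Of the 48 sites, 28 (58.3%) were at tRNA genes and 9 (18.8%) inside other genes. Of the 63 sites, 9 (14.3%) were at tRNA genes and 30 (47.6%) inside other genes. The shares over all shared sites were 38.8% and 29.6%.

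The shared sites that ranked higher in SNAP1/2 were led by tRNA genes. The 10 with the largest mean difference in rank were taken from the 48 sites at which the pairs did not overlap. Of these 10, 8 were at tRNA genes, for 8 different anticodons. Of the 8, 4 were called and 4 were not (limma adjusted p between 0.0593 and 0.111). At TRNAQ-UUG, a glutamine tRNA gene on chromosome 18 (site 49631624 to 49632142), the rank, counted from 1 for the strongest shared site, was 350, 410, 384 and 490 in the SNAP1/2 libraries and 708.5, 862, 1100.5 and 951.5 in the SNAP3/4 libraries. The difference was 1.06 ± 0.206 normal scores (SE, limma adjusted p = 0.0362). At TRNAG-CCC, a glycine tRNA gene on chromosome 2 (site 16258796 to 16259300), the ranks were 234, 376.5, 429 and 252 against 584.5, 464, 1100.5 and 1065, a difference of 1.08 ± 0.207 (SE, limma adjusted p = 0.0362). The SNAP4 libraries ranked both sites lowest. The exceptions among the 10 were LOC100788566, with a difference of 1.03 ± 0.211 (limma adjusted p = 0.0362), and IQD14, of a calmodulin-binding family, whose 0.81 ± 0.205 was not called (limma adjusted p = 0.0609).

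For the shared sites that ranked higher in SNAP3/4, the 10 with the largest mean difference were likewise taken from the 63 sites without overlap. Of these 10, 7 were linked to protein-coding genes and 0 were at tRNA genes. The largest difference was at a site 1062 bp outside the lncRNA gene LOC121174770, on chromosome 4 from 5432774 to 5433270. Its ranks were 829.5, 798.5, 693 and 1059 in the SNAP1/2 libraries and 116, 61, 347.5 and 173 in the SNAP3/4 libraries, a difference of -1.62 ± 0.242 normal scores (SE, limma adjusted p = 0.0256). The site inside LOC100782994, 64 bp from a gene end on chromosome 6 (47752299 to 47753098), had ranks of 1020, 989, 621.5 and 611 against 161.5, 142.5, 424 and 229, a difference of -1.31 ± 0.199 (limma adjusted p = 0.0256). At LOC100793556, 7 bp outside the gene on chromosome 4 (45976493 to 45977354), they were 750, 697.5, 764.5 and 725 against 332, 232, 128 and 158, a difference of -1.19 ± 0.191 (limma adjusted p = 0.0256). Each of the 3 sites ranked in the upper part of the SNAP3/4 order and in the lower part, or close to the middle, of the SNAP1/2 order. The lack of overlap between the pairs was a condition of their choice. At LOC100793556 the SNAP4 libraries were strongest and at the other sites the SNAP3 libraries.

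**Figure D5:**
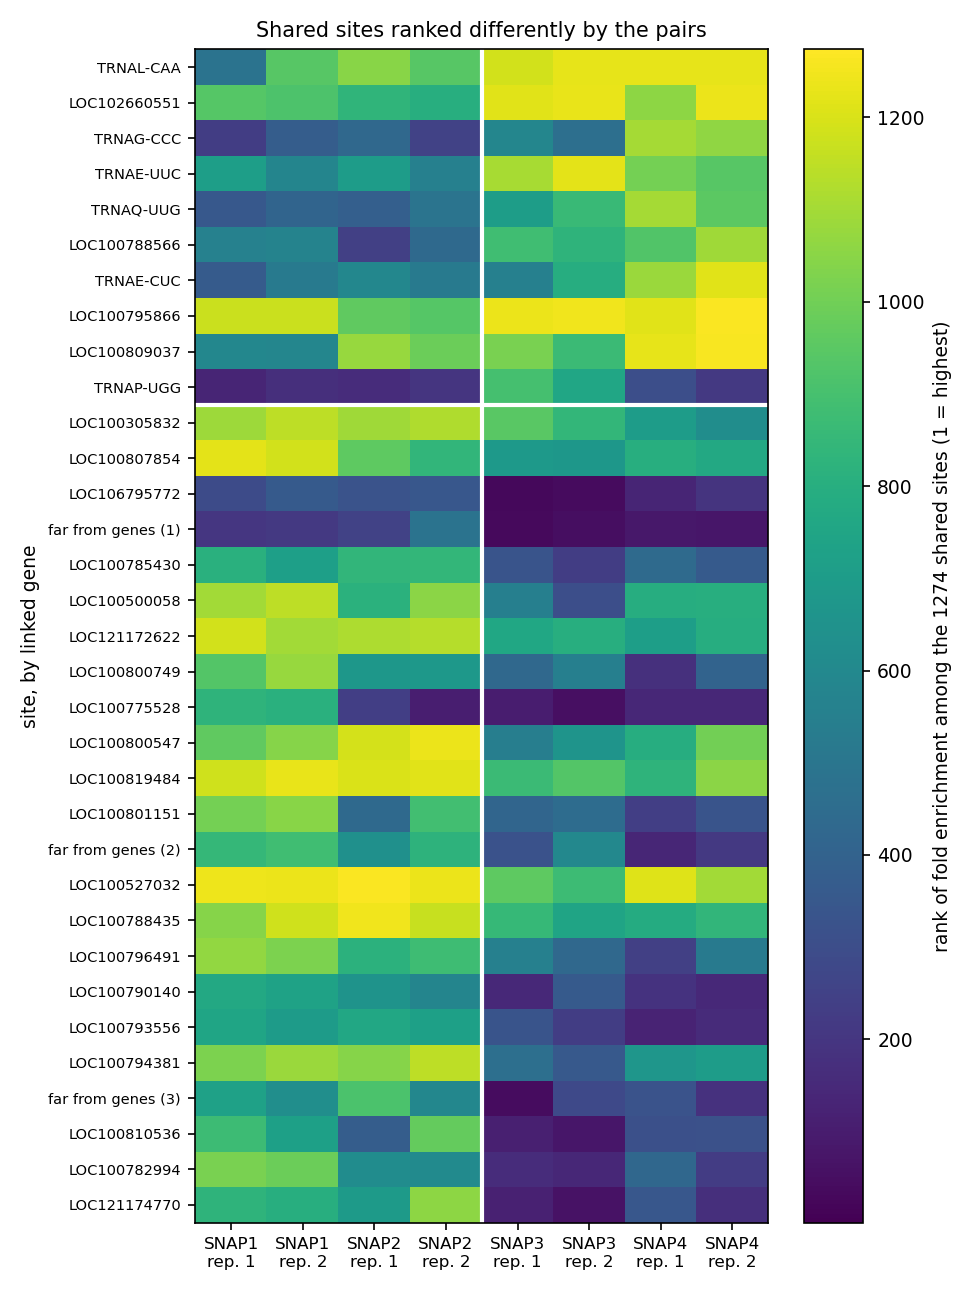
Rank of fold enrichment among the 1274 shared sites (1 is the highest, dark) in each of the 8 libraries for the 33 called sites, named by their linked gene, with the 10 ranked higher in SNAP1/2 above the white line and the 23 ranked higher in SNAP3/4 below it. All of the tRNA genes among the called sites are above the line.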

How the data were processed

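FLAG ChIP-seq was made from transgenic hairy roots with nodules for SNAP1, SNAP2, SNAP3 and SNAP4, with 2 replicates each. Per the submitters' notes and the study's methods, reads were trimmed (Trim Galore 0.6.6), aligned to the Wm82 a4.v1 genome (Bowtie2 2.3.4.3), filtered to properly paired, uniquely mapped reads of high mapping quality (SAMtools) and peaks called in each library on its own (MACS2 2.2.7.1; deepTools 3.5.1 made coverage). The lists reach down to a q-value of 0.05. Whether duplicate reads were removed and which control was used are not given in the sources used here, and of the depth the study states a minimum for all samples but no value for each library.

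The deposited lists give each peak a start and end, a browser score, a ratio of signal over background (fold enrichment), a −log10 p-value, a −log10 q-value and a summit position. The score and the −log10 p-value were not needed. A library's enrichment and depth set the scale of its fold enrichment, so sites were tested by its order within a library. Its median over all peaks and an alternative centred on that median were the exceptions, and fold enrichments of single sites are descriptions.

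Peak midpoints on the 20 chromosomes were set against RefSeq genes of Glycine_max_v4.0, the same assembly, whose gene coordinates are not printed. The annotation used holds no strand, description or sequence, so families were matched by symbol or synonym, and the planned motif counts were not made. Peaks overlapping by at least 1 bp were merged into union sites, and the strongest peak stood for a library. The 4 libraries of each pair were compared by an exact two-sided permutation test over libraries, with Benjamini-Hochberg adjustment over 6 measures. Exact p-values of measures outside these 6 are unadjusted unless an adjusted value is given. Shared sites were fitted with limma 3.58.1 in R 4.3.3, with a mean for each of the 4 factors, so the error is the spread between replicates of a factor. The replicates are biological per the study. The sites named are the 10 leading sites of each pair only, the 10 shared sites with the largest rank difference each way among those without overlap and the NAC and WRKY genes at sites of 1 pair only. The pairs, measures, lists and rules were chosen with earlier results of these data known. Steps were tested on simulated data. Python 3.11.15, numpy 2.4.6 and pandas 2.3.3 were used, and matplotlib 3.10.9 for figures.

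The alternatives were the top peaks, q-values of 0.01 and 0.0001, mean width, summits in place of midpoints, protein-coding genes alone, 1 kb in place of 2 kb, summits chained within 200 bp, other scales of rank, a replicate block and leaving out each library. Leaving out tRNA genes or a factor, rescaled widths, the top peaks without SNAP3 replicate 2 and the division of shared sites by position were added after seeing the data.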

Additional observations from a re-analysis of the deposited data

Results flagged for a closer look

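Over 11 measures in each pair, 22 groups of 4 libraries were examined for a library far from the other 3, and 2 were found, where chance gives about 1 in 20. The median peak width of SNAP3 replicate 1 was 270 bp, against 290 to 293 bp in the other SNAP3/4 libraries. The share of peaks at tRNA genes in SNAP3 replicate 2, the shortest list, was 15.4%, against 9.14 to 9.39% in the other SNAP3/4 libraries; with equal numbers of top peaks it was 15.4%, against 13.7 to 16.2%.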

How the results depend on the processing

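The differences in number of peaks, median width, the 3 positions and the percentile of shared sites kept their direction under the alternatives run, while the order of the site counts and the split of the limma calls did not. Leaving out 1 library or, where single values were compared, 1 factor gave differences (SNAP1/2 minus SNAP3/4) of 2242 to 3578 for the number of peaks, 40.0 to 77.0 bp for the median width, -13.5 to -5.60, 3.08 to 7.87 and 2.52 to 5.62 percentage points for peaks inside, beside and far from genes, and 7.86 to 10.5 for the median percentile of shared sites. Without a factor, 2 libraries against 4 cannot give an exact p below 0.0667. Sites of SNAP1/2 only numbered 914 to 1987, sites of SNAP3/4 only 179 to 491, and shared sites called by limma 0 to 116, with 165 to 335 at an unadjusted p of 0.05. With replicate numbers as a block (side labels exchanged within a number, smallest exact p = 0.0556) the differences of 2946, 58.5 bp, -9.55, 5.48, 4.07 and 8.38 all had that p, and limma with the block called 32 sites. Deviations of same-numbered replicates correlated between -0.0385 and 0.0553 over 6 pairs of factors. Such correlations cannot settle whether the replicate number carries a difference in values of whole libraries. The narrowest peak was 235, 209, 182 and 190 bp in replicate 1 of SNAP1 to SNAP4, and 245, 222, 208 and 192 bp in replicate 2. With top peaks the share far from genes differed by 3.79 (exact p = 0.0571) and 198 sites were of SNAP1/2 only. At a q-value of 0.0001, 555 and 79 sites were of SNAP1/2 and SNAP3/4 only. In the full lists, with a peak asked of all 4 libraries of the pair, the counts were 249 and 30. The limma count was 1 (184 at an unadjusted p of 0.05) with a mean for each pair in place of each factor, and 147 with the log2 fold enrichment centred on the library median (31 higher in SNAP1/2, 116 in SNAP3/4); ranks among all peaks turned the split of 10 and 23 to 20 and 3. Of the settings chosen after seeing the data, leaving out tRNA genes gave 3.62 far from genes (exact p = 0.0571) and 13 limma calls (7 and 6), the width over the narrowest peak differed by 0.0285 (exact p = 0.6), and top peaks without SNAP3 replicate 2 gave 85.8 bp (exact p = 0.0571), 400.0 and 587 sites of SNAP1/2 and SNAP3/4 only, and 0 limma calls (260 at an unadjusted p of 0.05). The cause of these changes was not tested. Without a read number for each library, an absent peak is no sign of absent binding.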

Other observations

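Among genes of nitrogen metabolism outside the lists above, the nitrate reductase gene INR2 had a shared site inside the gene, on chromosome 6 from 8767822 to 8769611. Its fold enrichment was 3.22 ± 0.217 in the SNAP1/2 libraries and 3.50 ± 0.447 in the SNAP3/4 libraries (SD, n = 4), while the peak was 896, 1790, 1410 and 1572 bp wide in the former and 740, 467, 579 and 516 bp wide in the latter. Among all peaks of the library the INR2 site stood low, at percentiles of fold enrichment of 3.30 to 18.7 in SNAP1/2 and 1.05 to 24.35 in SNAP3/4. The median over all shared sites of the mean percentile was 81.6. INR2 was picked after its values were seen. The nodulin gene NOD33 had a shared site with enrichments of 5.94 ± 0.350 and 5.60 ± 0.531, and peaks 732 to 1930 bp wide in the SNAP1/2 and 602 to 892 bp wide in the SNAP3/4 libraries.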
